A study of Rattus norvegicus with 6 samples.

Results

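The gene group described here comprised the enzymes of glycolysis, the pyruvate dehydrogenase step, the TCA cycle and the pentose phosphate pathway, chosen as the rows of the gene count table that carry 1 of 48 listed gene names. Of the 48 names, 46 matched a row exactly, Idh3b was matched to a row spelled Idh3B, and Pgd, the gene of 6-phosphogluconate dehydrogenase, had no row of that name and its expression is not analysed here. The 47 enzymes with a row stood among 33508 genes in the table, and all 47 passed the filter on low counts that left 12104 genes for testing. Glycolysis from hexokinase to lactate dehydrogenase held 17 of them, the pyruvate dehydrogenase step 7, the TCA cycle 18 and the pentose phosphate pathway 5.

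The study asked what overexpression of FNDC5, a membrane protein whose outer part is released as irisin, does to stressed bone marrow mesenchymal stem cells (BMSCs). By the study's methods, BMSCs came from marrow of the femurs and tibias of male Sprague-Dawley rats aged 2 months, were passaged 3 times, and were transduced for 72 h with FNDC5 lentivirus (BMSCs-OE-FNDC5, 3 libraries) or with blank lentivirus (BMSCs-OE-NC, vector control, 3 libraries). Control and FNDC5 cells thus share the transduction, and which tag, GFP or luciferase, the vectors of these libraries carried is not given in the sources used here. All 6 libraries were made after hypoxia and serum deprivation (H/SD), with 1% O2, 94% N2 and 5% CO2 in medium without glucose or serum for 24 h, and no library of unstressed cells entered the comparison. The labels call the libraries biological replicates without saying whether they came from separate animals or cultures, so that p-values measure the spread between these libraries.

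Glycolysis splits glucose into pyruvate in the cytosol and, where oxygen is short, lactate dehydrogenase turns the pyruvate into lactate, which regenerates the NAD+ that glycolysis needs. The pyruvate dehydrogenase complex converts pyruvate into acetyl-CoA for the TCA cycle in the mitochondrion, and the PDH kinases switch the complex off. The pentose phosphate pathway branches off at glucose 6-phosphate and supplies NADPH and ribose, and its non-oxidative arm exchanges sugars with glycolysis. In cells under hypoxia the factor HIF-1 is known to raise many glycolytic genes, and mesenchymal stem cells are known for a high rate of glycolysis.

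Each BMSCs-OE-NC library held 17430287 to 17965722 counts, and each BMSCs-OE-FNDC5 library 16640635 to 17229490. Fndc5 itself had 17 to 25 counts in the control libraries and 64195 to 65589 counts in the FNDC5 libraries, as the labels state. The log2 fold change of a gene fell with its length over the 12104 genes tested (Spearman's rho -0.44), so fold changes are also given after each library's trend with gene length was removed. All 10 mesenchymal markers passed the filter, with summed levels of 3096 to 3154 FPKM against 4558 to 4691 FPKM (control against FNDC5 libraries), 4 of them higher and 5 lower at an adjusted p under 0.05. Vim carried most of that sum, at 1748 against 3407 FPKM on average, and the other 9 markers summed to 1304 to 1420 FPKM against 1184 to 1278 FPKM. Of these, Pdgfrb, Itgb1, Nt5e and Vcam1 were lower by more than 1 on the log2 scale and Col1a1 was also lower (-0.34). Thy1 was higher by 1.29, Cd44 by 0.41 and Eng by 0.26, while Col1a2 did not pass. Of 9 haematopoietic markers, Cd14 and Cd68 were tested and both rose, with a summed list level of 57.2 to 60.3 against 118 to 122 FPKM, while Ptprc had no count. Neuronal markers summed to 7.55 to 9.27 against 20.5 to 21.7 FPKM with Rbfox3, Snap25 and Nefl at 0. Stmn2 carried nearly all of that sum, at 8.28 against 20.5 FPKM on average. Muscle markers summed to 10.6 to 12.1 against 19.0 to 19.9 FPKM with Myog and Acta1 at 0. Of the 2 muscle markers tested, Myod1 rose, at 8.89 against 18.3 FPKM on average, and Tnnt3 fell, at 2.37 against 1.19 FPKM. No marker of the retina, the tissue that the extraction note names, passed the filter. The part of these other cell types in the enzymes' values was not tested. As in any bulk sample, fewer cells of a type and less RNA per cell cannot be told apart.

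Most enzymes of glycolysis were higher with FNDC5, the pentose phosphate enzymes divided into 3 large rises and 1 fall, and the TCA cycle and the pyruvate dehydrogenase step went both ways. A gene is said to have risen or fallen where the quasi-likelihood test of edgeR gave it a p under 0.05 after Benjamini-Hochberg adjustment over all 12104 genes. By that rule 31 of the 47 enzymes rose (66.0%, against 36.9% of all genes tested), 10 fell (21.3%, against 38.8%) and 6 did not pass, and 75.7% of all genes passed in either direction. Fold changes are those of the FNDC5 libraries over the control libraries. The median log2 fold change of the 47 enzymes was 0.39, and that of all genes tested was -0.04. The FPKM values of the groups did not overlap for 42 of the 47 enzymes (89.4%, against 78.0% of all genes tested).

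By pathway, 15 of 17 glycolytic genes rose, 1 fell and 1 did not pass, with a median log2 fold change of 0.62. At the pyruvate dehydrogenase step 3 of 7 rose, 3 fell and 1 did not pass (median -0.04). In the TCA cycle 10 of 18 rose, 5 fell and 3 did not pass (median 0.18), and in the pentose phosphate pathway 3 of 5 rose, 1 fell and 1 did not pass (median 1.05). A log2 fold change beyond 1 in addition was reached by 4 enzymes upward, Tpi1, Pgls, Tkt and Taldo1 (9.84% of all genes tested were past that threshold upward), and by 1 enzyme downward, Sucla2 (17.5% of all genes). Idh1 lay just short of the threshold at -0.996, and without 1 of BMSCs-OE-NC replicates 1 or 3 or BMSCs-OE-FNDC5 replicates 2 or 3 it passed, which made 2 enzymes. Membership of this small set moved with the scaling. With the length trend removed Tpi1 (0.91) and Taldo1 (0.77) fell short and Pfkm (1.17) passed. With library size only Tpi1 (0.75) and Taldo1 (0.68) fell short, while Idh1, Dld, Suclg2 and Rpe joined Sucla2 downward. With upper-quartile scaling Taldo1 (0.94) fell short of the threshold upward, and Idh1 (-1.10) passed it downward. Sdhb, at 0.99 under TMM, passed with DESeq2 (1.01), RLE scaling (1.02) and both FPKM fits.

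**Figure D1:**
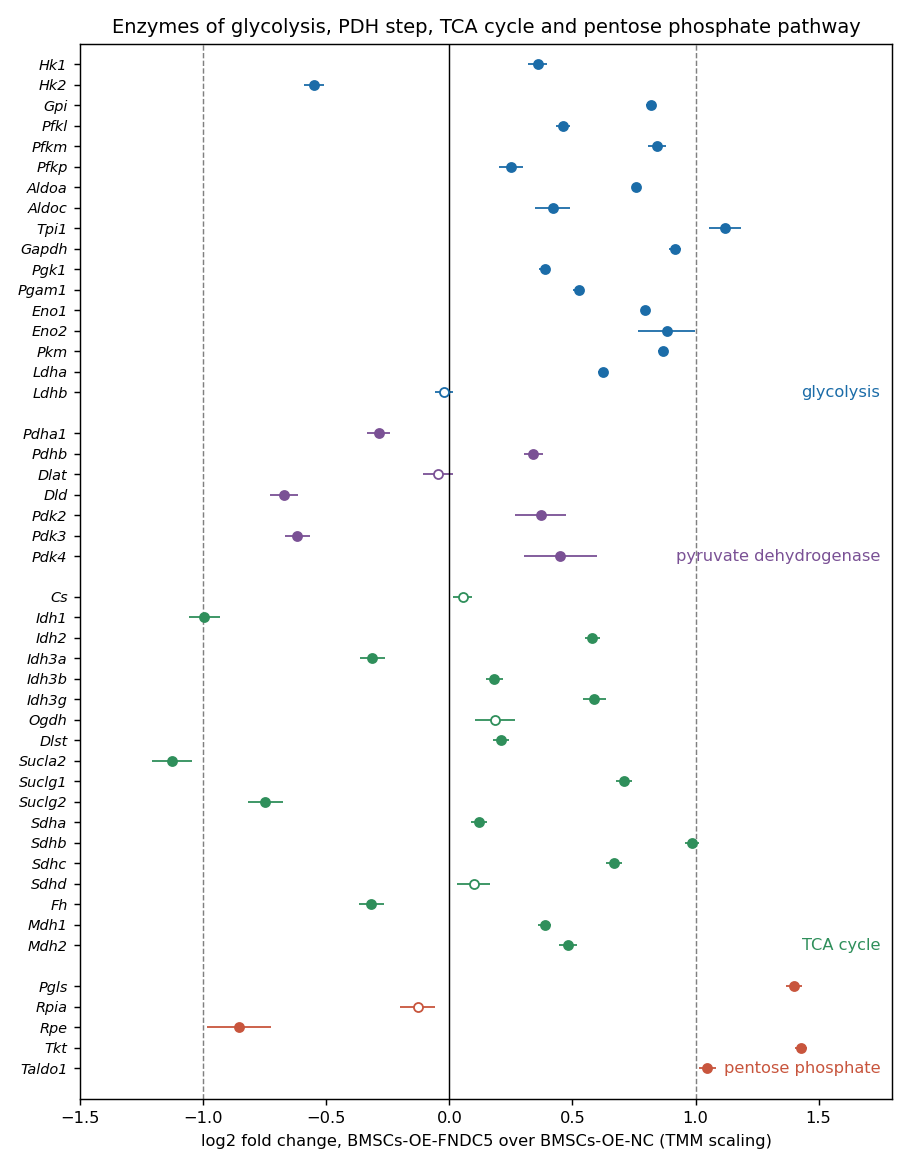
Each point is the log2 ratio of 1 enzyme between BMSCs-OE-FNDC5 and BMSCs-OE-NC from edgeR with TMM scaling, and the bar is its standard error from 3 libraries a group. Filled points passed an adjusted p of 0.05 and dashed lines mark log2 fold changes of -1 and 1. In glycolysis only Hk2 lies left of 0 with a filled point (-0.55, or 0.16 with the length trend removed), while the other pathways hold filled points on both sides.

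The directions near 0 depended on how libraries were put on a common scale. The main scaling, TMM, takes most genes as unchanged, with factors of 1.13 to 1.14 for the control libraries and 0.877 to 0.882 for the FNDC5 libraries. Scaling by total counts alone moved the median of all genes by -0.37 on the log2 scale, and with it 20 enzymes rose and 19 fell (22.0% and 55.4% of all genes). In glycolysis 11 then rose and 3 fell, in the TCA cycle 6 rose and 10 fell, at the pyruvate dehydrogenase step none rose and 4 fell, and in the pentose phosphate pathway 3 rose and 2 fell. Since that scaling shifts every gene alike, the order of the enzymes and the differences between pathways did not move with it. Upper-quartile scaling moved the median of all genes by -0.10, and 28 enzymes rose and 13 fell. With the length trend removed, which moved the median by 0.12, 31 rose and 12 fell (40.7% and 30.8% of all genes).

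**Figure D2:**
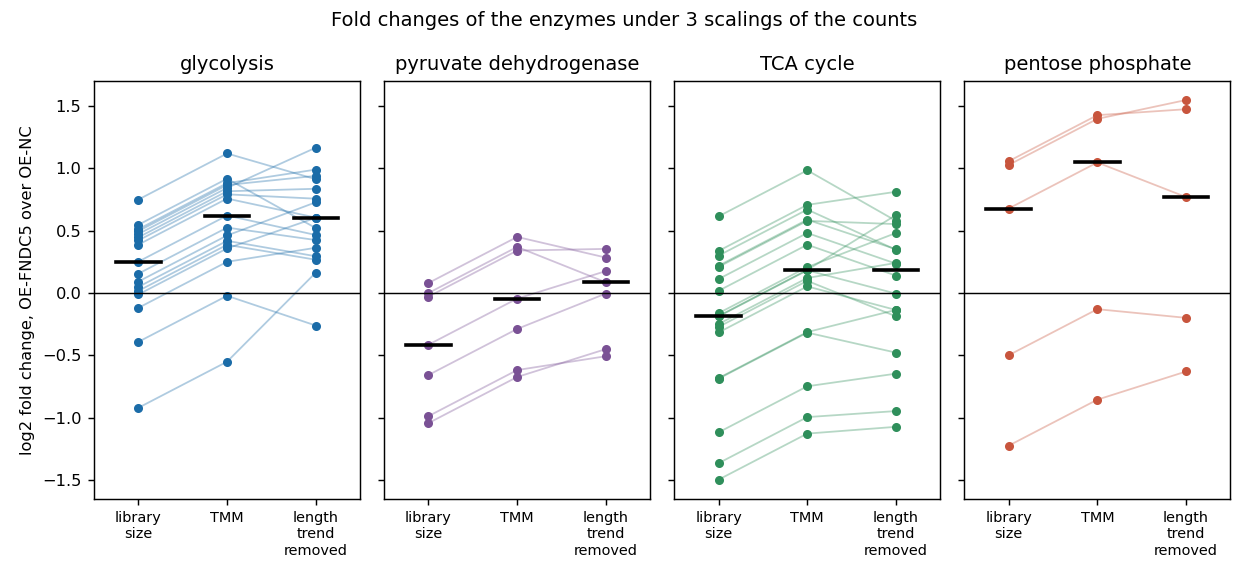
Points are log2 fold changes of the enzymes of each pathway under library size only, TMM and TMM with the length trend removed, lines join the same gene and black bars are medians. The glycolysis median stays above 0 at 0.25, 0.62 and 0.60, the pentose phosphate median at 0.68, 1.05 and 0.77, and that of the TCA cycle turns from -0.19 to 0.18 and 0.19.

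As levels, the glycolytic messages far exceeded the others. Levels are given as FPKM, the authors' value per kilobase of gene and per unit of depth on their own library scale. The 17 glycolytic genes summed to 11577, 11218 and 11155 FPKM in the controls and to 19318, 19313 and 19304 FPKM with FNDC5, a ratio of means of 1.71. The 5 pentose phosphate genes summed to 485, 476 and 472 FPKM against 1109.6, 1107 and 1143 FPKM, a ratio of 2.34. The 18 TCA cycle genes summed to 1341, 1293 and 1313 FPKM against 1815, 1802 and 1789 FPKM, a ratio of 1.37. The 7 genes of the pyruvate dehydrogenase step summed to 137.6, 137.1 and 131.7 FPKM against 131.96, 128.9 and 130.5 FPKM, values that overlapped, with a ratio of 0.963. These sums describe the libraries and were not tested.

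The summed FPKM of all genes also differed, from 547675 to 556849 in the controls against 868901 to 881688 with FNDC5. As a share of that total, glycolysis went from 2.054% ± 0.0227 to 2.204% ± 0.0169 (SD, n = 3 each) and the pentose phosphate genes from 0.0867% ± 0.000564 to 0.128% ± 0.00168. The TCA cycle, higher as summed FPKM, was lower as a share, 0.239% ± 0.00239 against 0.206% ± 0.00242, and the pyruvate dehydrogenase step was also lower, 0.0246% ± 0.000521 against 0.0149% ± 0.000127. Within a library scaling cancels, but the trend with gene length does not, and these sums were not corrected for it. The TCA cycle sum was 11.6% ± 0.125 of the glycolysis sum in BMSCs-OE-NC and 9.33% ± 0.0631 in BMSCs-OE-FNDC5. The pentose phosphate sum was 4.22% ± 0.0304 and 5.799% ± 0.108 of the glycolysis sum, and the sum of the pyruvate dehydrogenase step 1.197% ± 0.0223 and 0.675% ± 0.00798 (SD, n = 3 each). None of these percentages overlapped between the groups.

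**Figure D3:**
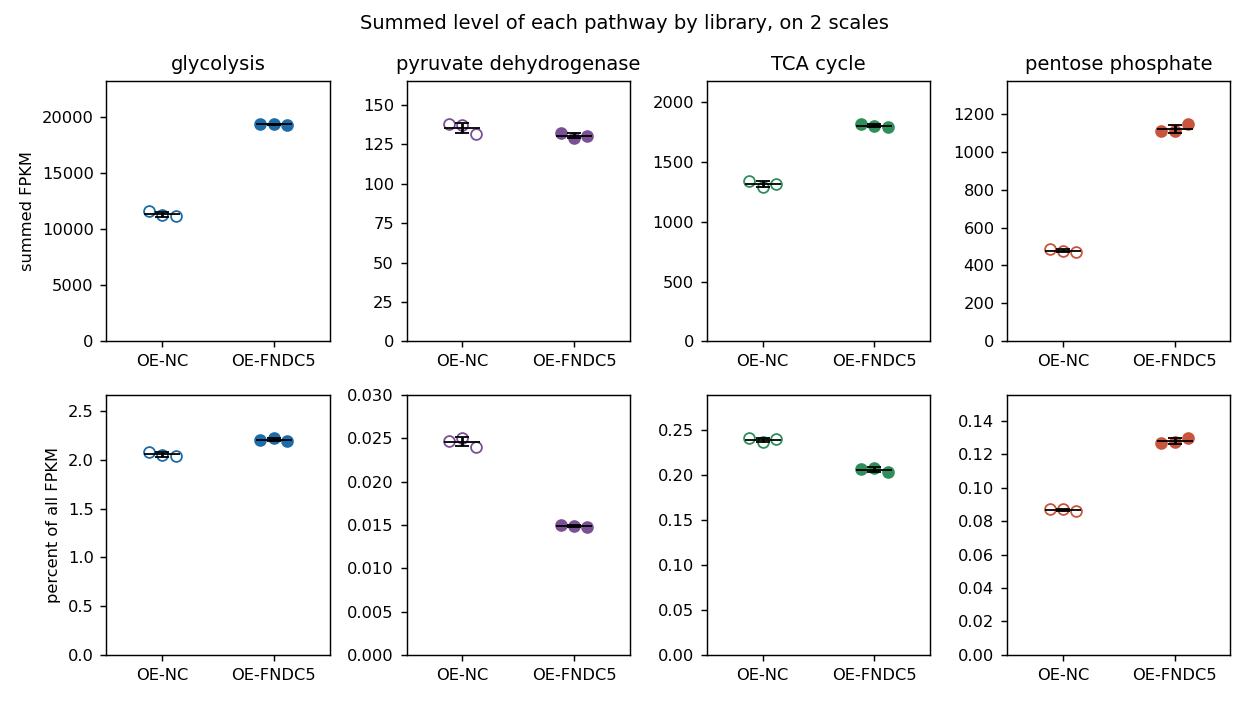
Summed FPKM of each pathway (upper row) and the same sum as a percent of all FPKM (lower row) in the 3 BMSCs-OE-NC libraries (open) and the 3 BMSCs-OE-FNDC5 libraries (filled), with the mean as a bar and the SD as its error. The TCA cycle sits higher with FNDC5 in the upper row, 1316 against 1802 FPKM, and lower in the lower row, 0.239% against 0.206%.

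Glucose enters glycolysis through hexokinase, and its isozymes took opposite directions under TMM scaling. Hk1, the housekeeping hexokinase, stood at 45.1, 44.6 and 44.4 FPKM in BMSCs-OE-NC and 55.5, 61.5 and 58.0 FPKM in BMSCs-OE-FNDC5. Hk2, the inducible hexokinase of muscle and of hypoxic cells, stood at 29.0, 30.2 and 30.8 FPKM in BMSCs-OE-NC and 20.6, 20.0 and 21.98 FPKM in BMSCs-OE-FNDC5. Neither gene's groups overlapped: Hk1 was higher in every FNDC5 library and Hk2 lower. Hk1 rose (log2 fold change 0.36, standard error 0.04, adjusted p = 7.47e-06), although with library size only its log2 fold change was -0.01 and did not pass. Hk2 fell (log2 fold change -0.55, standard error 0.04, adjusted p = 3.02e-07), whereas with the length trend removed it rose by 0.16, so that the direction of this gene, the longest of the glycolytic group at 5432 bases, depended on that step. The share of Hk2 in the summed hexokinase level went from 40.2% ± 0.934 to 26.4% ± 1.56 (SD, n = 3), while that sum itself was 74.7 ± 0.582 FPKM in BMSCs-OE-NC and 79.2 ± 2.84 FPKM in BMSCs-OE-FNDC5 (SD, n = 3 each). Gpi, which isomerizes glucose 6-phosphate, rose from 434 ± 3.88 to 778 ± 7.28 FPKM (SD, n = 3 each), with a log2 fold change of 0.82.

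Phosphofructokinase, the committed step of glycolysis, has a liver, a muscle and a platelet isozyme, and all 3 rose with TMM scaling. Pfkl, the liver type and the most abundant per length, stood at 135, 143 and 137 FPKM in BMSCs-OE-NC and 193, 197 and 192 FPKM in BMSCs-OE-FNDC5 (log2 fold change 0.46, standard error 0.03, adjusted p = 5.19e-08). Pfkm, the muscle type, stood at 29.3, 30.0 and 28.5 FPKM in BMSCs-OE-NC and 52.3, 55.1 and 52.9 FPKM in BMSCs-OE-FNDC5 (log2 fold change 0.84, standard error 0.04, adjusted p = 2.40e-09). Pfkp, the platelet type, stood at 28.7, 26.8 and 26.2 FPKM in BMSCs-OE-NC and 33.5, 33.8 and 31.6 FPKM in BMSCs-OE-FNDC5 and rose least (log2 fold change 0.25, standard error 0.05, adjusted p = 5.95e-04), and with library size only it fell, with a log2 fold change of -0.12. No isozyme's groups overlapped. Pfkm took a larger share of the summed phosphofructokinase level with FNDC5, from 15.02% ± 0.191 to 19.1% ± 0.292, and Pfkp a smaller one, from 14.0% ± 0.802 to 11.8% ± 0.289 (SD, n = 3 each).

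The middle and lower steps rose almost throughout. Aldoa, the main aldolase, stood at 1919.9, 1873 and 1889.9 FPKM in BMSCs-OE-NC and 3276, 3231 and 3282 FPKM in BMSCs-OE-FNDC5 (log2 fold change 0.76, standard error 0.02, adjusted p = 1.08e-11). Aldoc, the brain type of aldolase, was scarce at 13.8, 14.4 and 15.99 FPKM in BMSCs-OE-NC and 19.7, 19.7 and 20.8 FPKM in BMSCs-OE-FNDC5 (log2 fold change 0.42, standard error 0.07, adjusted p = 2.76e-04), and with library size only its log2 fold change of 0.05 did not pass. Both aldolases were higher in every FNDC5 library than in any control library. Tpi1, which interconverts the triose phosphates, had the largest fold change of the glycolytic group under TMM, at 30.4, 36.6 and 33.8 FPKM in BMSCs-OE-NC and 75.1, 77.9 and 69.9 FPKM in BMSCs-OE-FNDC5 (log2 fold change 1.12, standard error 0.07, adjusted p = 3.48e-08), a 2.17-fold rise. With the length trend removed Pfkm (1.17) rose most in that group, and Tpi1 rose by 0.91. Gapdh, the first enzyme of the pay-off phase and a common reference gene for qPCR, had the highest level per length of the 47 enzymes, at 2276, 2137 and 2124 FPKM in BMSCs-OE-NC and 4190.0, 4186 and 4199 FPKM in BMSCs-OE-FNDC5 (log2 fold change 0.92, standard error 0.02, adjusted p = 5.87e-11). Its groups lay far apart, and the rise was 1.89-fold. With the length trend removed Gapdh rose by 0.52 on the log2 scale.

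Pgk1, the first ATP-forming step, rose from 934 ± 21.8 to 1244 ± 15.9 FPKM (SD, n = 3 each), a log2 fold change of 0.39 that became 0.02 and did not pass with library size only. Pgam1, the phosphoglycerate mutase, rose by 0.53, from 659.6 ± 15.6 to 967 ± 7.200 FPKM (SD, n = 3 each). Eno1, the general enolase, stood at 1706, 1664 and 1654 FPKM in BMSCs-OE-NC and 2953, 2943 and 2964 FPKM in BMSCs-OE-FNDC5 (log2 fold change 0.79, standard error 0.02, adjusted p = 7.67e-12). Eno2, the neuronal enolase, was nearly absent beside it at 2.89, 3.04 and 3.18 FPKM in BMSCs-OE-NC and 5.43, 6.09 and 5.596 FPKM in BMSCs-OE-FNDC5 (log2 fold change 0.88, standard error 0.12, adjusted p = 3.42e-05). Both enolases rose, and their log2 ratio overlapped between the groups. Pkm, the pyruvate kinase of most tissues, rose from 1526 ± 38.4 to 2835 ± 9.18 FPKM (SD, n = 3 each), with a log2 fold change of 0.87.

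**Figure D4:**
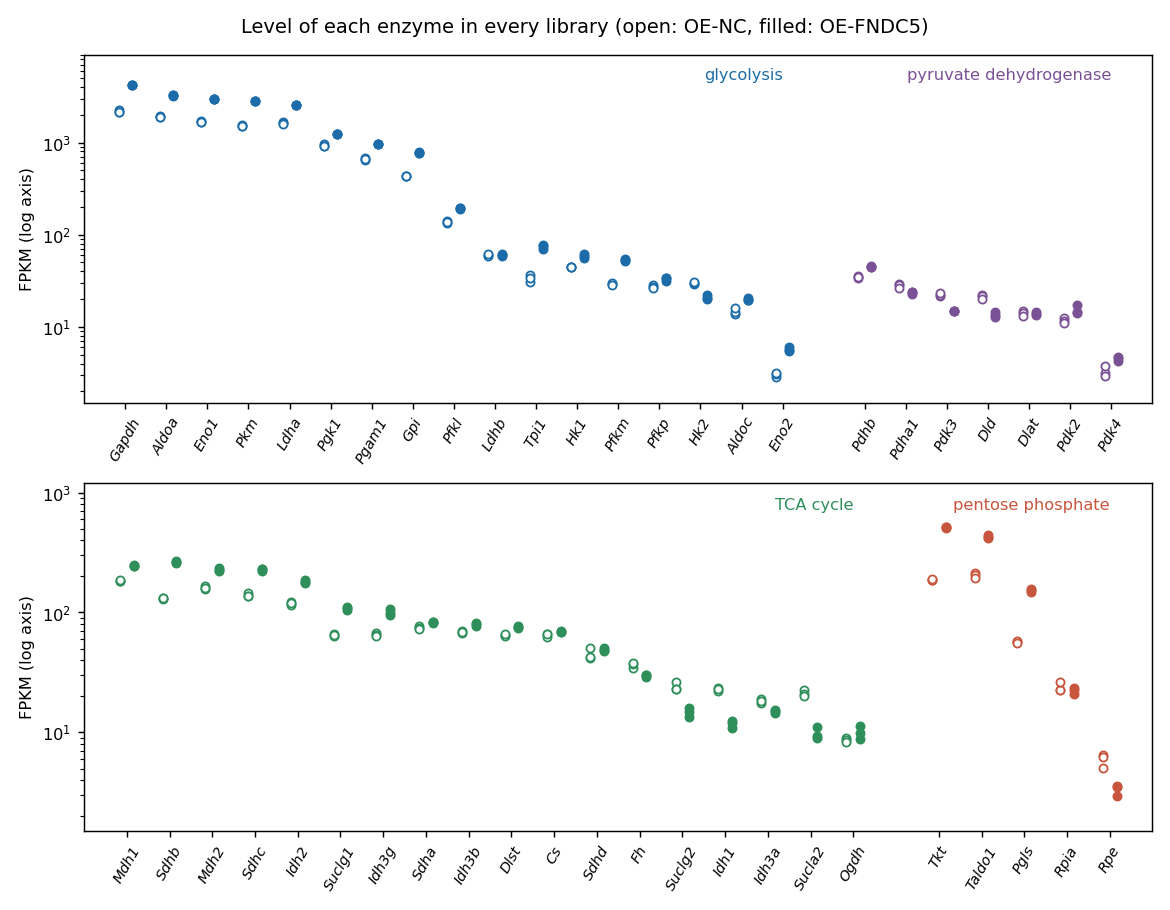
FPKM of the 47 enzymes in every library on a log axis, open circles for BMSCs-OE-NC and filled circles for BMSCs-OE-FNDC5, with genes sorted by mean level within each pathway. Gapdh, Aldoa, Eno1, Pkm and Ldha all exceed 1494 FPKM in every library, and Tkt is the highest of the 5 pentose phosphate genes in BMSCs-OE-FNDC5, whereas Taldo1 stands above it in BMSCs-OE-NC.

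Of the lactate dehydrogenase subunits, A rose and B did not pass the test. Ldha, whose enzyme favours lactate formation, stood at 1661, 1637 and 1606 FPKM in BMSCs-OE-NC and 2557, 2564 and 2563 FPKM in BMSCs-OE-FNDC5 (log2 fold change 0.62, standard error 0.02, adjusted p = 6.02e-11). Ldhb, whose enzyme favours the return of lactate to pyruvate, stood at 60.3, 58.9 and 61.3 FPKM in BMSCs-OE-NC and 59.4, 60.5 and 61.1 FPKM in BMSCs-OE-FNDC5, values that overlapped, and did not pass (log2 fold change -0.02, standard error 0.04, adjusted p = 0.605). Its log2 fold change was slightly positive with RLE scaling, DESeq2 and both FPKM fits and passed in none of them, while with library size only, upper-quartile scaling or the length trend removed Ldhb fell, with log2 fold changes of -0.39, -0.13 and -0.26. The B subunit made up 3.55% ± 0.107 and 2.30% ± 0.0299 (SD, n = 3 each) of the summed level in BMSCs-OE-NC and BMSCs-OE-FNDC5. The log2 ratio of Ldhb to Ldha was -4.76 ± 0.04 (SD, n = 3) in BMSCs-OE-NC and -5.41 ± 0.02 (SD, n = 3) in BMSCs-OE-FNDC5, a difference of -0.64 (two-sided exact permutation test over the libraries, p = 0.1, the smallest that 3 against 3 allows, and 0.138 after adjustment over 11 isozyme pairs).

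The promoters of the pair are shown because these isozymes separated and because Ldha is a textbook target of HIF-1. The windows run from 250 bases before to 50 bases after the RefSeq start site, 5′ to 3′ on the strand of the gene, and capitals mark the core of the hypoxia-response element (ACGTG or GCGTG, either strand, overlapping matches joined).
Ldha (GRCr8 chr1:106507842-106508141, plus strand): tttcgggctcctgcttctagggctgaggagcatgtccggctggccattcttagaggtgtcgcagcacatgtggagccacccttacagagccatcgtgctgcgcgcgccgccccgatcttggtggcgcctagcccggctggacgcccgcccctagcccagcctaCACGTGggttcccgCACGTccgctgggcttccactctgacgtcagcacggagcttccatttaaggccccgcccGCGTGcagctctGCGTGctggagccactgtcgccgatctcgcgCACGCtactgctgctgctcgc
Ldhb (GRCr8 chr4:177177359-177177658, minus strand): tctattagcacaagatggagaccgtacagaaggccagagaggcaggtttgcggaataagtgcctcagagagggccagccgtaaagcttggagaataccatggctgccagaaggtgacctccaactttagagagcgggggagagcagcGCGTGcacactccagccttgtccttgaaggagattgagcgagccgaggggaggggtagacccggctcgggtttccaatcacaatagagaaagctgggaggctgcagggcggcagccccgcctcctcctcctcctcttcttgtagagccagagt
Ldha held 6 matches, of which the run CACGTG carries 1 on each strand, and Ldhb held 1. The core occurred in 41.6% of all 33469 rat windows. These were taken without regard to expression in these cells, whereas every enzyme with a row had passed the filter on low counts. Of the 48 listed genes, 45 had a window, in 49 windows altogether (Pgd has a window and is counted here, while Pgk1, Pgls and Idh3a have none), and the core was present in 27 of these (55.1%). By pathway it was in 14 of 20 glycolysis windows (70.0%), 6 of 7 of the pyruvate dehydrogenase step (85.7%), 6 of 17 of the TCA cycle (35.3%) and 1 of 5 of the pentose phosphate pathway (20.0%). It stood in 19 of 33 windows of enzymes that rose (57.6%) and in 4 of 9 windows of enzymes that fell (44.4%). Hk2, Tpi1, Pkm and Tkt had none in the window. A match is a run of letters and not a binding site, and both groups were hypoxic.

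Several glycolytic genes have other rows that were taken as near-identical copies, so reads could be split between them. The sequences of these rows were not compared here. LOC108351137 carried 33.1% as many counts as Gapdh and LOC100911515 carried 3.15 times the counts of Tpi1, and both copies rose, with log2 fold changes of 0.76 and 1.03. Added to their copies, Gapdh rose by 0.88 and Tpi1 by 1.05. Copies of Pkm, Ldha and Eno1 held between 1.14% and 3.86% of the counts of the named gene and the log2 fold changes of the sums were 0.87, 0.62 and 0.80. LOC100911625, the copy of Eno2, had 549 counts in BMSCs-OE-NC replicate 1 and 187 to 260 counts in the other libraries. Eno2 summed with it had a log2 fold change of 0.43 and did not pass (adjusted p = 0.107), so the rise of Eno2 is uncertain. With the copies added, 14 of 17 glycolytic genes rose, 1 fell and 2 did not pass, with a median log2 fold change of 0.53. The FPKM levels and sums given here leave out the copies.

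The core of the pyruvate dehydrogenase complex went both ways. Pdhb, the beta subunit of E1, rose from 34.8 ± 0.810 to 44.9 ± 0.651 FPKM (SD, n = 3 each), a log2 fold change of 0.34 that was -0.03 with library size only, while Pdha1, the alpha subunit of the same enzyme, fell by 0.29, from 28.0 ± 1.43 to 23.4 ± 0.728 FPKM (SD, n = 3 each). With the length trend removed, Pdha1 had a log2 fold change of -0.0037 and did not pass. Dlat, the E2 subunit, overlapped between the groups at 14.1 ± 0.880 and 14.0 ± 0.476 FPKM (SD, n = 3 each) and did not pass, with a log2 fold change of -0.04 that became 0.18 and passed with the length trend removed. Dld, the E3 subunit, which also serves the 2-oxoglutarate dehydrogenase complex, stood at 22.1, 21.5 and 20.2 FPKM in BMSCs-OE-NC and 13.6, 12.7 and 14.3 FPKM in BMSCs-OE-FNDC5. No FNDC5 library reached the lowest control library, and Dld fell (log2 fold change -0.67, standard error 0.06, adjusted p = 8.56e-07).

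Of the PDH kinases, Pdk3 fell while Pdk2 and Pdk4 rose under TMM scaling. Pdk3 stood at 21.6, 22.2 and 23.2 FPKM in BMSCs-OE-NC and 14.8, 14.7 and 14.9 FPKM in BMSCs-OE-FNDC5 and fell (log2 fold change -0.62, standard error 0.05, adjusted p = 5.61e-07). Pdk2 stood at 12.4, 11.5 and 11.04 FPKM in BMSCs-OE-NC and 17.1, 14.7 and 14.3 FPKM in BMSCs-OE-FNDC5 and rose (log2 fold change 0.37, standard error 0.10, adjusted p = 0.00690), but its log2 fold change was 0.00059 with library size only and 0.09 with the length trend removed, and passed in neither. Pdk4, the starvation-responsive kinase, was low at 3.17, 3.74 and 2.90 FPKM in BMSCs-OE-NC and 4.58, 4.30 and 4.77 FPKM in BMSCs-OE-FNDC5 and rose (log2 fold change 0.45, standard error 0.15, adjusted p = 0.0173), a call that was lost without BMSCs-OE-NC replicate 1 or 3, where its log2 fold changes were 0.42 and 0.36, and also with upper-quartile scaling, library size only or the length trend removed. The fall of Pdk3 had no overlap between groups and passed under every scaling tried. Pdk1, not one of the listed 48 and added after its values were seen, was the most abundant kinase at 59.0 ± 0.699 and 72.6 ± 3.25 FPKM (SD, n = 3 each). Pdk1 rose under TMM (log2 fold change 0.27) and with the length trend removed (0.11), but fell with library size only (-0.097). Of the summed level of the 4 kinases, 96.3 ± 0.562 FPKM in BMSCs-OE-NC and 107 ± 2.14 FPKM in BMSCs-OE-FNDC5 (SD, n = 3 each), Pdk3 went from 23.2% ± 0.859 to 13.8% ± 0.177 (SD, n = 3 each).

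In the TCA cycle the first steps after acetyl-CoA differed by enzyme. Cs, citrate synthase, stood at 66.2, 62.7 and 66.7 FPKM in BMSCs-OE-NC and 68.4, 69.8 and 68.6 FPKM in BMSCs-OE-FNDC5. Cs did not pass under TMM (log2 fold change 0.05, standard error 0.04, adjusted p = 0.214), whereas it fell with library size only (-0.32) and with the length trend removed (-0.14). Idh1, the NADP-linked isocitrate dehydrogenase of the cytosol, stood at 22.2, 23.6 and 23.1 FPKM in BMSCs-OE-NC and 10.8, 12.05 and 12.4 FPKM in BMSCs-OE-FNDC5. Every FNDC5 library lay below every control library, and Idh1 fell 1.99-fold (log2 fold change -0.996, standard error 0.06, adjusted p = 7.10e-08). Idh2, the NADP-linked enzyme of the mitochondrion, stood at 122, 116 and 119 FPKM in BMSCs-OE-NC and 186, 179.6 and 178 FPKM in BMSCs-OE-FNDC5, with no overlap, and rose (log2 fold change 0.58, standard error 0.03, adjusted p = 1.44e-08). Its row lies across Zfp710 on the opposite strand in the table's coordinates, and the strand setting of the counting is not given in the sources used here, but Zfp710 had 1468 counts in all against 29425 for Idh2.

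Idh1 and Idh2 had the widest separation among the 11 isozyme pairs. Their log2 ratio, Idh2 to Idh1, was 2.37 ± 0.08 (SD, n = 3) in BMSCs-OE-NC and 3.95 ± 0.14 (SD, n = 3) in BMSCs-OE-FNDC5, a difference of 1.58 or 2.98-fold (exact permutation test, p = 0.1, adjusted 0.138), and leaving out any 1 library gave a difference of at least 1.4997 and at most 1.63. The share of Idh1 in the summed level went from 16.2% ± 0.728 to 6.09% ± 0.533 (SD, n = 3). Both promoter windows are shown for this reason, with the GC box (GGGCGG, either strand), the motif of the Sp family of factors, in capitals.
Idh1 (GRCr8 chr9:74049425-74049724, minus strand): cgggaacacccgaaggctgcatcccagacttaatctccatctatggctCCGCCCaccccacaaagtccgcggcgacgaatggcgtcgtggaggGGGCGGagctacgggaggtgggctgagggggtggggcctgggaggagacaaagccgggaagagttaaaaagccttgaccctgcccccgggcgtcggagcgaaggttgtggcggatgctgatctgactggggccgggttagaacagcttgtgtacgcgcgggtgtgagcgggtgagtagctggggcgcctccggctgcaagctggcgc
Idh2 (GRCr8 chr1:143467199-143467498, minus strand): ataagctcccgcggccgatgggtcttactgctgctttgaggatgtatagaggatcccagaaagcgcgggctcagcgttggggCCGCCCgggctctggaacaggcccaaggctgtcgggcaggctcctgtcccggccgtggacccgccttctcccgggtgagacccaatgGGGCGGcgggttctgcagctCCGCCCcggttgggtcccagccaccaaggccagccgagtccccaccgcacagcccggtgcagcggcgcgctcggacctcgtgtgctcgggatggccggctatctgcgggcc
Idh1 held 2 GC boxes and Idh2 held 3. The motif was in 33.1% of all windows, again taken without regard to expression, and in 32 of the 49 enzyme windows (65.3%). It was in 18 of 33 windows of enzymes that rose (54.5%) and 7 of 9 windows of enzymes that fell (77.8%). By pathway it was in 13 of 20 windows of glycolysis, 4 of 7 of the pyruvate dehydrogenase step, 11 of 17 of the TCA cycle and 4 of 5 of the pentose phosphate pathway. The core of the antioxidant-response element (TGACNNNGC, either strand), which NRF2 binds at NADPH-forming enzymes, was in 12.1% of all windows and in 8 of the 49 enzyme windows (16.3%). It was in 5 of 33 windows of enzymes that rose (15.2%) and 3 of 9 of enzymes that fell (33.3%). Idh1 held 1 match and Idh2 held 0. The core was in 0 of the 5 pentose phosphate windows, which are those of Pgd, Rpe, Rpia, Taldo1 and Tkt. So few windows, each starting 250 bases before the start site, cannot show whether these genes lack the element, and Pgls has no window.

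The NAD-linked isocitrate dehydrogenase, whose 3 subunits work as 1 enzyme, went both ways. Idh3a, the catalytic subunit, fell from 18.3 ± 0.698 to 14.96 ± 0.309 FPKM (SD, n = 3 each), with a log2 fold change of -0.31. Idh3g rose by 0.59, from 65.4 ± 1.55 to 100.2 ± 6.33 FPKM (SD, n = 3 each). Idh3b rose by 0.18 under TMM, yet its log2 fold change was -0.19 with library size only and -0.0045 with the length trend removed. In the 2-oxoglutarate dehydrogenase complex Ogdh, the E1 subunit, overlapped between the groups at 8.60 ± 0.323 and 9.95 ± 1.21 FPKM (SD, n = 3 each) and did not pass (log2 fold change 0.19, standard error 0.08, adjusted p = 0.0614, or -0.18 with library size only), whereas with the length trend removed it rose by 0.63, and without BMSCs-OE-FNDC5 replicate 1 it rose by 0.27. The row of Ogdh lies across Zmiz2 on the same strand, and Zmiz2 had 346 counts in all against 3486 for Ogdh. The effect of this overlap on the counts was not tested. Dlst, the E2 subunit, rose by 0.21, from 64.4 ± 1.29 to 75.8 ± 1.77 FPKM (SD, n = 3 each), and fell with library size only (-0.16).

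Succinyl-CoA ligase, which forms ATP or GTP from succinyl-CoA, showed the widest spread inside 1 enzyme. Sucla2, the ATP-specific beta subunit, stood at 22.4, 20.7 and 20.3 FPKM in BMSCs-OE-NC and 11.1, 9.04 and 9.36 FPKM in BMSCs-OE-FNDC5, with no overlap, and fell 2.19-fold, the largest fall of the 47 (log2 fold change -1.13, standard error 0.08, adjusted p = 2.32e-07). Suclg2, the GTP-specific beta subunit, stood at 26.2, 23.2 and 23.2 FPKM in BMSCs-OE-NC and 14.7, 13.4 and 15.9 FPKM in BMSCs-OE-FNDC5 and also fell (log2 fold change -0.75, standard error 0.07, adjusted p = 2.21e-06). Suclg1, the alpha subunit that both share, rose from 65.0 ± 0.895 to 108 ± 3.13 FPKM (SD, n = 3 each), with a log2 fold change of 0.71. The summed level of the beta subunits was 45.3 ± 2.83 FPKM in BMSCs-OE-NC and 24.5 ± 1.77 FPKM in BMSCs-OE-FNDC5 (SD, n = 3 each), and the share of Sucla2 in it went from 46.6% ± 0.550 to 40.1% ± 3.03 (SD, n = 3). These 3 directions held with library size only and with the length trend removed.

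Succinate dehydrogenase, which is also complex II of the respiratory chain, rose in 3 of its 4 subunits, by unequal amounts. Sdhb, the iron-sulphur subunit, stood at 133, 128 and 132 FPKM in BMSCs-OE-NC and 260.4, 269 and 263 FPKM in BMSCs-OE-FNDC5 and rose (log2 fold change 0.99, standard error 0.03, adjusted p = 1.72e-10), the largest rise in the TCA cycle under TMM. The groups did not overlap, and the rise was 1.98-fold. With the length trend removed Sdhb, a short gene at 980 bases, rose by 0.58, less than Suclg1 (0.81) and Ogdh (0.63). Sdhc, a membrane anchor, rose by 0.67, or 0.35 with the length trend removed, from 140.2 ± 4.68 to 227 ± 3.58 FPKM (SD, n = 3 each). Sdha, the flavoprotein subunit, rose by only 0.12 and fell with library size only (-0.25). Sdhd, the other anchor, overlapped between the groups at 45.0 ± 4.57 and 49.1 ± 1.02 FPKM (SD, n = 3 each). Sdhd did not pass under TMM (log2 fold change 0.10), whereas it fell with library size only (-0.27) and with the length trend removed (-0.19). Fh, fumarase, fell by 0.32 on the log2 scale, from 36.4 ± 1.94 to 29.7 ± 0.472 FPKM (SD, n = 3 each).

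Malate dehydrogenase closed the cycle with a rise of both isozymes. Mdh1 of the cytosol stood at 183, 185 and 187 FPKM in BMSCs-OE-NC and 246, 246 and 248 FPKM in BMSCs-OE-FNDC5 (log2 fold change 0.39, standard error 0.03, adjusted p = 1.29e-07). Mdh2 of the mitochondrion stood at 166, 156 and 159.8 FPKM in BMSCs-OE-NC and 237, 223 and 225 FPKM in BMSCs-OE-FNDC5 (log2 fold change 0.48, standard error 0.04, adjusted p = 2.31e-07). Neither overlapped between the groups, although with library size only Mdh1 was at 0.02 and did not pass. Their log2 ratio was -0.20 ± 0.06 (SD, n = 3) in BMSCs-OE-NC and -0.11 ± 0.05 (SD, n = 3) in BMSCs-OE-FNDC5, which overlapped (exact permutation test, two-sided, p = 0.3, adjusted 0.367).

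The pentose phosphate pathway held the largest rises of the 47 enzymes. Tkt, transketolase of the non-oxidative arm (chr16:6609668-6634595 in the table, whose build is not named), stood at 186, 187 and 188 FPKM in BMSCs-OE-NC and 505, 516 and 517 FPKM in BMSCs-OE-FNDC5. The groups lay far apart beside the spread of their replicates, and Tkt rose 2.69-fold (log2 fold change 1.43, standard error 0.02, adjusted p = 1.56e-12). Taldo1, transaldolase of the same arm, stood at 213, 204 and 195 FPKM in BMSCs-OE-NC and 427, 416 and 444 FPKM in BMSCs-OE-FNDC5 and rose 2.07-fold (log2 fold change 1.05, standard error 0.04, adjusted p = 4.32e-10). Pgls, the lactonase of the oxidative arm, stood at 56.5, 58.2 and 55.6 FPKM in BMSCs-OE-NC and 153, 148 and 156 FPKM in BMSCs-OE-FNDC5 and rose 2.64-fold (log2 fold change 1.40, standard error 0.03, adjusted p = 2.19e-11). All 3 rises passed under every scaling tried, with log2 fold changes of 1.06, 0.68 and 1.03 with library size only.

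The interconversion of the pentose phosphates, also part of the non-oxidative arm, behaved otherwise. Rpe, the ribulose-5-phosphate epimerase, was scarce at 6.45, 5.08 and 6.20 FPKM in BMSCs-OE-NC and 2.93, 3.55 and 3.50 FPKM in BMSCs-OE-FNDC5, with no overlap, and fell (log2 fold change -0.86, standard error 0.13, adjusted p = 1.11e-04). Rpia, the ribose-5-phosphate isomerase, stood at 22.7, 22.7 and 26.3 FPKM in BMSCs-OE-NC and 21.0, 23.3 and 22.4 FPKM in BMSCs-OE-FNDC5, which overlapped, and did not pass under TMM (log2 fold change -0.13, standard error 0.07, adjusted p = 0.113), whereas it fell with library size only (-0.50) and with the length trend removed (-0.20).

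Over the 11 isozyme pairs, the log2 ratio did not overlap between the groups in 8 and overlapped in 3 (Eno2 to Eno1, Pdk4 to Pdk2 and Mdh2 to Mdh1). An exact permutation test of 3 against 3 libraries cannot give a two-sided p under 0.1, and all 8 reached 0.1, or 0.138 after adjustment over the 11 pairs. The difference of the log2 ratio, FNDC5 libraries minus control libraries, was 1.58 for Idh2 to Idh1, -0.99 for Pdk3 to Pdk2, -0.91 for Hk2 to Hk1 and -0.64 for Ldhb to Ldha. It was 0.38 for Suclg2 to Sucla2, 0.38 for Pfkm to Pfkl, -0.34 for Aldoc to Aldoa and -0.21 for Pfkp to Pfkl. A ratio within a library does not depend on how libraries are scaled, but it does on the length trend where the isozymes differ in length: with the trend removed, Hk2 to Hk1 changed by -0.44 and Pdk3 to Pdk2 by -0.59.

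**Figure D5:**
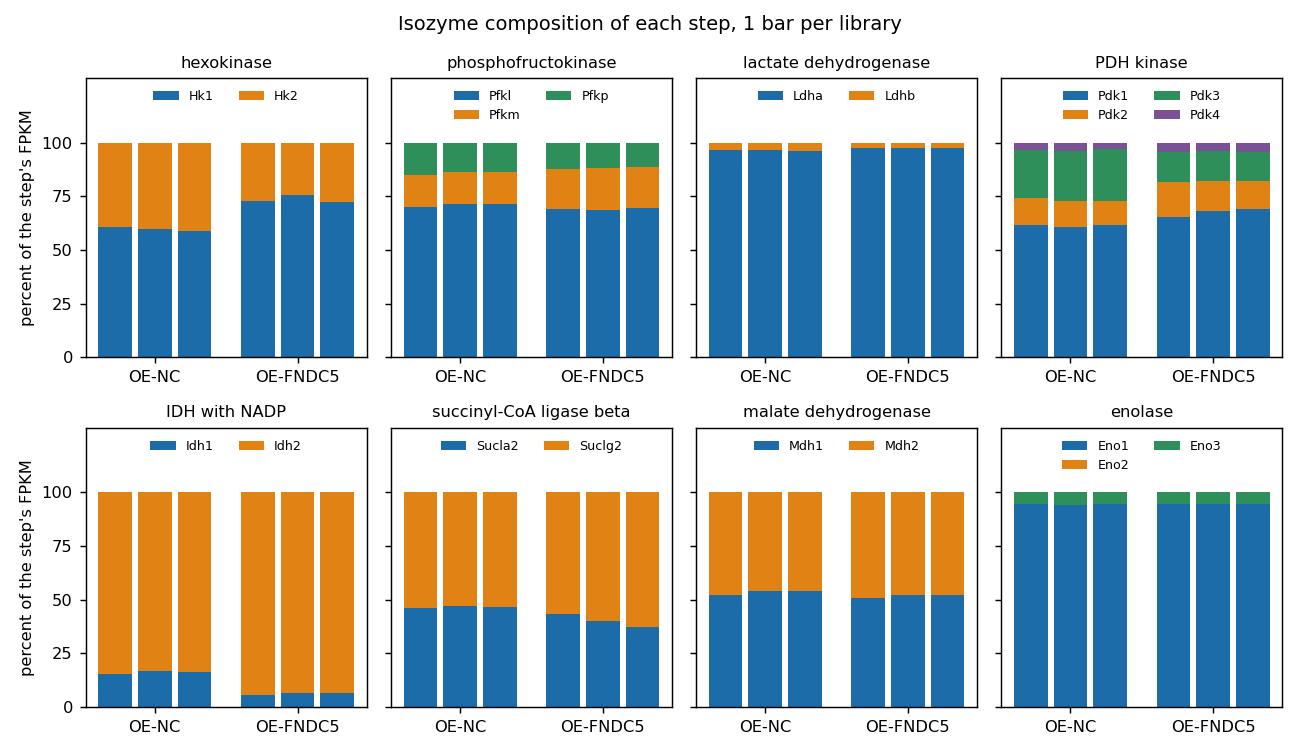
Share of each isozyme in the summed FPKM of its step, in percent, with 1 bar for each of the 3 BMSCs-OE-NC and 3 BMSCs-OE-FNDC5 libraries. Hk2 (40.2% to 26.4%), Pdk3 (23.2% to 13.8%) and Idh1 (16.2% to 6.09%) shrink in every FNDC5 library, and the enolase and malate dehydrogenase bars barely move.

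Other genes of these pathways were taken from a list of 61 transporters, further isozymes, regulators, pentose phosphate enzymes and shuttle enzymes, of which 58 had a row and 44 passed the filter. Of the 44, 22 rose (36.9% of all genes tested did), 11 fell (38.8% of all genes) and 11 did not pass, with a median log2 fold change of 0.19. With library size only 13 of the 44 rose (22.0% of all genes did) and 21 fell (55.4% of all genes). Under TMM, transport genes rose in 5 of 8 cases and fell in 2, further isozymes rose in 5 of 9 and fell in none, regulators of glycolysis and of the pyruvate dehydrogenase complex rose in 1 of 7 and fell in 3, pentose phosphate enzymes rose in 4 of 8 and fell in 3, and shuttle and anaplerotic genes rose in 7 of 12 and fell in 3. With library size only the balance of most groups turned: 2 transport genes rose and 3 fell, 2 of the further isozymes rose and 4 fell, 0 regulators rose and 5 fell, 3 pentose phosphate enzymes rose and 5 fell, and 6 shuttle and anaplerotic genes rose and 4 fell.

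The largest fall among them was that of Gpd2, the mitochondrial arm of the glycerol phosphate shuttle, at 9.17, 10.3 and 9.54 FPKM in BMSCs-OE-NC and 4.28, 3.83 and 4.503 FPKM in BMSCs-OE-FNDC5 (log2 fold change -1.23, standard error 0.08, adjusted p = 1.40e-07). Slc16a1, the lactate transporter MCT1, stood at 102, 105 and 105 FPKM in BMSCs-OE-NC and 49.5, 49.95 and 52.7 FPKM in BMSCs-OE-FNDC5 (log2 fold change -1.06, standard error 0.03, adjusted p = 2.16e-10). Slc16a3, the lactate exporter MCT4, singled out after its values were seen, was the more abundant of this pair at 315, 312 and 313 FPKM in BMSCs-OE-NC and 490.4, 483 and 480.0 FPKM in BMSCs-OE-FNDC5 and rose (log2 fold change 0.60, standard error 0.02, adjusted p = 5.79e-10). Pdp1, the phosphatase that reactivates pyruvate dehydrogenase, stood at 6.35, 5.35 and 5.38 FPKM in BMSCs-OE-NC and 3.17, 3.55 and 3.66 FPKM in BMSCs-OE-FNDC5 (log2 fold change -0.74, standard error 0.12, adjusted p = 1.27e-04). Gpd2, Slc16a1 and Pdp1 fell without overlap between the groups. Pck2, the mitochondrial PEP carboxykinase, stood at 30.3, 27.6 and 30.2 FPKM in BMSCs-OE-NC and 65.4, 62.4 and 62.6 FPKM in BMSCs-OE-FNDC5 (log2 fold change 1.09, standard error 0.05, adjusted p = 2.27e-09). Rbks, the ribokinase that feeds ribose into the pentose phosphate pool, stood at 13.2, 14.0 and 13.0 FPKM in BMSCs-OE-NC and 29.4, 28.2 and 25.7 FPKM in BMSCs-OE-FNDC5 (log2 fold change 1.02, standard error 0.07, adjusted p = 1.80e-07). Both rose about as far as Taldo1. Slc25a1, the citrate carrier, stood at 50.9, 53.1 and 56.9 FPKM in BMSCs-OE-NC and 92.5, 96.4 and 93.4 FPKM in BMSCs-OE-FNDC5 (log2 fold change 0.79, standard error 0.04, adjusted p = 2.41e-08). Slc25a11, the 2-oxoglutarate carrier, stood at 119, 116 and 116 FPKM in BMSCs-OE-NC and 197, 204 and 215 FPKM in BMSCs-OE-FNDC5 (log2 fold change 0.79, standard error 0.04, adjusted p = 4.06e-09). Ldhd, the D-lactate dehydrogenase, stood at 9.44, 8.36 and 9.49 FPKM in BMSCs-OE-NC and 16.9, 16.4 and 14.7 FPKM in BMSCs-OE-FNDC5 (log2 fold change 0.79, standard error 0.09, adjusted p = 6.55e-06). All 3 rose, with no overlap between the groups.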

How the data were processed

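RNA-seq was deposited for 3 BMSCs-OE-FNDC5 and 3 BMSCs-OE-NC libraries. The authors deposited gene counts (HTSeq 0.6.0, HISAT2 2.1.0, Bowtie2 2.2.3, CASAVA, TopHat2 and DESeq2 are named in the submitters' processing notes, without roles) and FPKM values, which the authors computed from the same counts, the table's gene length and a scaled library size. Although the labels mention a mouse build (mm10) and retinas, the identifiers in the tables are those of rat. The genome build of the tables and the strand setting are not given in the sources used here.

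Counts were analysed with edgeR 4.0.16 in R 4.3.3: filterByExpr (minimum count 10, minimum total count 15), TMM scaling, glmQLFit and glmQLFTest with condition as the only term, and Benjamini-Hochberg adjustment over 12104 genes. The procedure was tested on simulated data. FPKM was used for levels and isozyme shares, counts per kilobase for isozyme ratios, which were compared by exact permutation tests. Promoter windows are those of RefSeq (GRCr8).

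All members were to be accounted for. Full values were given for both genes of each isozyme pair, for the 3 largest absolute log2 fold changes of each pathway and, of 61 further pathway genes, for the 8 largest with a mean of at least 10 CPM. Some listed genes are not reported here by name. The members and lists were chosen with earlier results of these data known. Replicates differed beyond sampling noise (chi-square per degree of freedom 3.85 to 7.95 within groups). Alternatives were other scalings (RLE, upper quartile, library size only), no filter, at least 10 counts in every library, DESeq2 1.42.0, limma-voom (limma 3.58.1), limma on log2(FPKM + 1) and log2(FPKM + 0.1), removal of each library's length trend (lowess, span 0.3), a replicate block and leaving out each library. Sums with rows taken as near-identical copies and shares of all FPKM were added after the data had been seen. Python 3.11.15 with matplotlib 3.10.9 made the figures.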

Additional observations from a re-analysis of the deposited data

How the results depend on the processing

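All 47 enzymes kept their side of the threshold with DESeq2, limma-voom, log2(FPKM + 1), log2(FPKM + 0.1), no filter and the replicate block (31 rose and 10 fell), and 46 kept their direction in all of these, while Ldhb, which passed in none, turned from -0.02 to about 0.0040 with DESeq2 and both FPKM fits. Same-numbered libraries did not deviate together (r = 0.0213, -0.0138 and -0.0067), and the block changed no call among the enzymes. With 3 libraries a group, these correlations cannot show whether same-numbered libraries shared an animal or culture. With RLE scaling Ogdh also rose, and with at least 10 counts in every library Rpia also fell.

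With library size only, 20 enzymes rose and 19 fell (glycolysis 3 lower, pyruvate dehydrogenase step 0 higher, TCA cycle 6 higher and 10 lower, pentose phosphate pathway 2 lower), 2 rose and 5 fell past the fold threshold, and 13 of the other pathway genes rose and 21 fell. The log2 fold change then turned for Hk1 (-0.011), Pfkp (-0.12), Pdhb (-0.029), Cs (-0.32), Idh3b (-0.19), Dlst (-0.16), Sdha (-0.25) and Sdhd (-0.27). With the length trend removed it turned for Hk2 (0.16), Dlat (0.18), Cs (-0.14), Idh3b (-0.0045) and Sdhd (-0.19). The TCA cycle then had 7 lower, the pentose phosphate pathway 2 lower and the other pathway genes 6 lower. Upper-quartile scaling gave 2 lower in glycolysis and 2 in the pentose phosphate pathway (Ldhb and Rpia, with Dlat, then fell). Under it Idh3b, Sdha and Pdk4 no longer passed, and Cs and Sdhd, which did not pass there either, were at -0.051 and -0.0065. The 2 lower in the pentose phosphate pathway were also seen with at least 10 counts in every library. Past the fold threshold 2 were lower with upper-quartile scaling, no filter and at least 10 counts in every library, and 1 to 2 when a library was left out, and without BMSCs-OE-NC replicate 1 Sdhd rose (0.18). The cause was not tested. With the trend removed, the isozyme log2 ratios changed by -0.44 (Hk2/Hk1), 0.44 (Pfkm/Pfkl), -0.37 (Pfkp/Pfkl), 0.23 (Eno2/Eno1), -0.73 (Ldhb/Ldha) and -0.59 (Pdk3/Pdk2), and on log2(FPKM + 1) Eno2/Eno1 changed by -0.087. The summed levels changed by 0.75 (glycolysis), 0.43 (TCA cycle) and 1.204 (pentose phosphate) on the log2 scale with TMM-scaled counts per kilobase, and as a share of all FPKM by 0.10, -0.215 and 0.56, with -0.72 for the pyruvate dehydrogenase step.

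With 3 libraries a group, the call of Pdk4, at 92 to 120 counts in the controls, rests on few reads.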
